A study of Mus musculus with 127 samples.

Results

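The endoplasmic reticulum (ER) folding and secretion genes described here are 36 named genes of the 23946 in the deposited expression table, and all 36 were found in it. They were sorted by role into 9 translocon genes, 4 signal peptidase genes, 4 genes of N-linked glycosylation, 11 chaperones and co-chaperones, 7 genes of disulfide bond formation and 1 regulator, Xbp1. They were followed across 127 single cells from the bone marrow of C57BL/6 mice, all wild-type, and set against 13 genes of primary granule cargo and 15 of specific granule cargo, with Hp in both cargo lists. Marrow from the hindlimbs was enriched on beads for CD117, the Kit receptor, and cells of a population labelled GMP-P were sorted and captured on the Fluidigm C1 system. The labels place 46 cells in a Ly6g high gate, 41 in a Ly6g low gate and 40 in a CD11b+ gate, and describe the cells of all 3 gates as CD11b+ (Itgam). All cells are wild-type and untreated as far as the labels say, and neither the age of the mice nor the number pooled is given in the sources used here. No animal is named, so each gate counts as 1 sample. No test between gates or classes could be made, the differences below have no replicate check, and each SD describes the spread over cells only.

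Proteins destined for granules or for secretion enter the ER through the Sec61 channel, helped by the TRAP complex that the Ssr genes encode. Inside, signal peptidase removes the leader, oligosaccharyltransferase adds sugar chains, BiP (Hspa5) and other chaperones hold the chain, and protein disulfide isomerases form its disulfide bonds. In neutrophil development the load on this route changes in kind: primary granules with Mpo, Elane, Prtn3 and Ctsg are filled first, and specific granules with Camp and Ltf later. Xbp1 and Atf6 are the factors best known for raising ER chaperone genes, and Xbp1 in particular is known for its part in secretory cells such as plasma cells.

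Many ER chaperone genes carry the ER stress response element, which is bound by Atf6 together with the factor NF-Y. The element was searched as CCAAT, any 9 bases and CCACG, on both strands of the window from 250 bases before to 50 bases after the start of each gene in the RefSeq promoter table (GRCm38.p6). Of the 36 genes, 29 had an entry, with Ero1l found under its current symbol Ero1a, and 7 of the 29 (24.1%) held the element. It stood in 39 of all 32851 promoter windows (0.119%) and, counted by gene as for the 29, in 37 of 27025 genes (0.137%). By role, it stood in 6 of 9 chaperone promoters and 1 of 7 disulfide promoters, and in 0 of 7 translocon, 0 of 2 signal peptidase, 0 of 3 glycosylation and 0 of 1 regulator promoters. The matches are printed because they fall mostly on 1 role, the chaperones, and because no expression value entered the search. Each runs 5′ to 3′ on its gene's strand, with the fixed letters of the element in capitals and 10 bases on either side, and coordinates are those of GRCm38.p6, not of the build mm9 used for the expression table.
Hspa5 (chr2:34772015-34772053, + strand): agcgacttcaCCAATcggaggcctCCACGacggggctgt
Canx (chr11:50325790-50325828, − strand): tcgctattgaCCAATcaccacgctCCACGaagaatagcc
Dnajc3 (chr14:118937817-118937855, + strand): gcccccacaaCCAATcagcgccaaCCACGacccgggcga
Pdia6 (chr12:17266481-17266519, + strand): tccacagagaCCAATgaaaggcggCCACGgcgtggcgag
Calr (chr8:84847065-84847103, − strand): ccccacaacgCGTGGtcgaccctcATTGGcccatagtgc
Creld2 (chr15:88819510-88819548, + strand): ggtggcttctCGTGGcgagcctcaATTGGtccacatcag
Hsp90b1 (chr10:86705523-86705666, − strand): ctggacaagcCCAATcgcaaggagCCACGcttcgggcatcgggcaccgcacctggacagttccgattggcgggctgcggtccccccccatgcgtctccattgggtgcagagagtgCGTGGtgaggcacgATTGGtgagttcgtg

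In Hspa5, Canx, Dnajc3 and Pdia6 the element reads on the gene's own strand, in Calr and Creld2 it reads on the other strand, and Hsp90b1 holds 1 match in each direction. The match nearest to its start site lay in Hspa5, from base -65 to base -47 counted from the start. The match farthest from its start lay in Hsp90b1, from base -212 to base -194. A match of letters is a description and not evidence that a factor binds there.

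**Figure D1:**
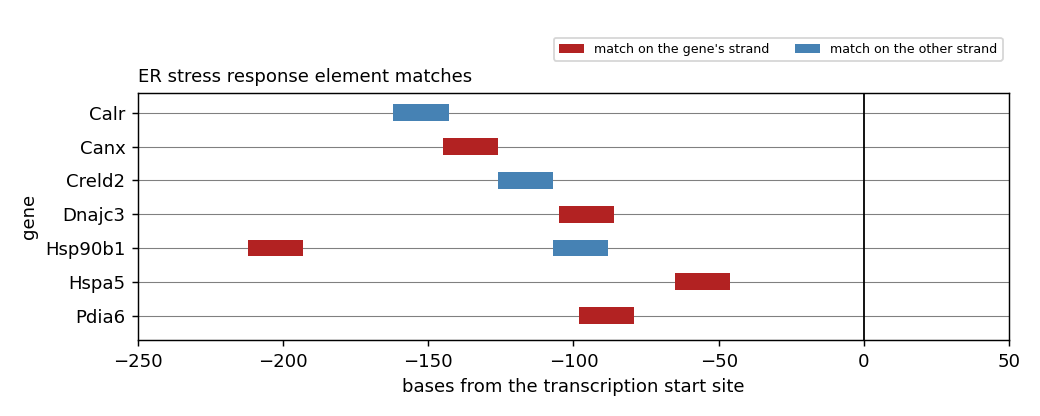
Position of each match of the ER stress response element in bases from the transcription start site, for the 7 genes that hold 1 (vertical axis), coloured by strand. All 8 matches lie before the start, between base -212 in Hsp90b1 and base -47 in Hspa5.

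The values are in TPM, a share of all transcripts of a cell corrected for gene length, so levels of different genes may be set side by side. TPM keeps no read depth, and depth was therefore described by the genes at 1 TPM or more in a cell. Their median was 1695 in Ly6g high cells (966 to 4679), 2521 in Ly6g low cells (1159 to 5058) and 2464.5 in CD11b+ cells (821 to 5173). The names of all CD11b+ cells begin with a string of digits that no Ly6g cell name carries, and this gate and whatever the string marks cannot be told apart. Codes at the end of the cell names, which read like positions, repeat between gates, 18 of them between the 2 Ly6g gates. No label names a plate, and whether the gates were captured separately was not tested. Of the sorting genes, Ly6g followed the names of the 2 Ly6g gates, with means of 936 TPM (high) and 353 TPM (low), and averaged 171 TPM in the CD11b+ gate. The labels describe the cells of every gate as CD11b+, and mean Itgam, which encodes CD11b, was lowest in the gate of that name. This is a transcript level and not surface protein. Itgam averaged 66.9 TPM there, with 67.5% of cells at 1 TPM or more. It was 228 TPM (89.1%) in the Ly6g high gate and 112 TPM (90.2%) in the Ly6g low gate. Mean Kit was 2.56, 19.95 and 63.5 TPM in Ly6g high, Ly6g low and CD11b+ cells. A deposited file gives each cell 1 of 11 class names, and the sources used here do not say how classes were made. Myelo-2 is the commonest class with 72 cells, followed by Myelo-4 with 16, Myelo-3 with 9, HSCP-2 with 7, Gran-2 with 6, Myelo-1 and Mono with 5 each and Gran-1 with 4. MDP, Multi-Lin and Eryth have 1 cell each. Gran-1 and Gran-2 are pooled below as Gran cells. Since the classes may rest on the expression of these same cells, differences between classes are given as descriptions.

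The summed level of the 36 genes divided the classes into a high and a low set. It ran from 8936 to 18219 TPM with a median of 12272 in the 10 Gran cells, and from 14067 to 20676 TPM with a median of 16192 in the 5 Mono cells. The 7 HSCP-2 cells ranged from 1835 to 15613 TPM with a median of 10647, and the single Multi-Lin, Eryth and MDP cells held 13815, 12994 and 20915 TPM. Against this, the median was 5443 TPM in Myelo-1 cells (2989 to 9351), 2289 TPM in Myelo-2 cells (198 to 5684), 1382 TPM in Myelo-3 cells (56.1 to 4129) and 1573 TPM in Myelo-4 cells (117 to 6482). Every Gran and every Mono cell stood above every Myelo-2, Myelo-3 and Myelo-4 cell, while Myelo-1 cells overlapped both sets. In HSCP-2 the 2 low cells, at 1835 and 3521 TPM, were those of the Ly6g high gate, and the 5 of the CD11b+ gate stood at 9813 TPM or more.

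**Figure D2:**
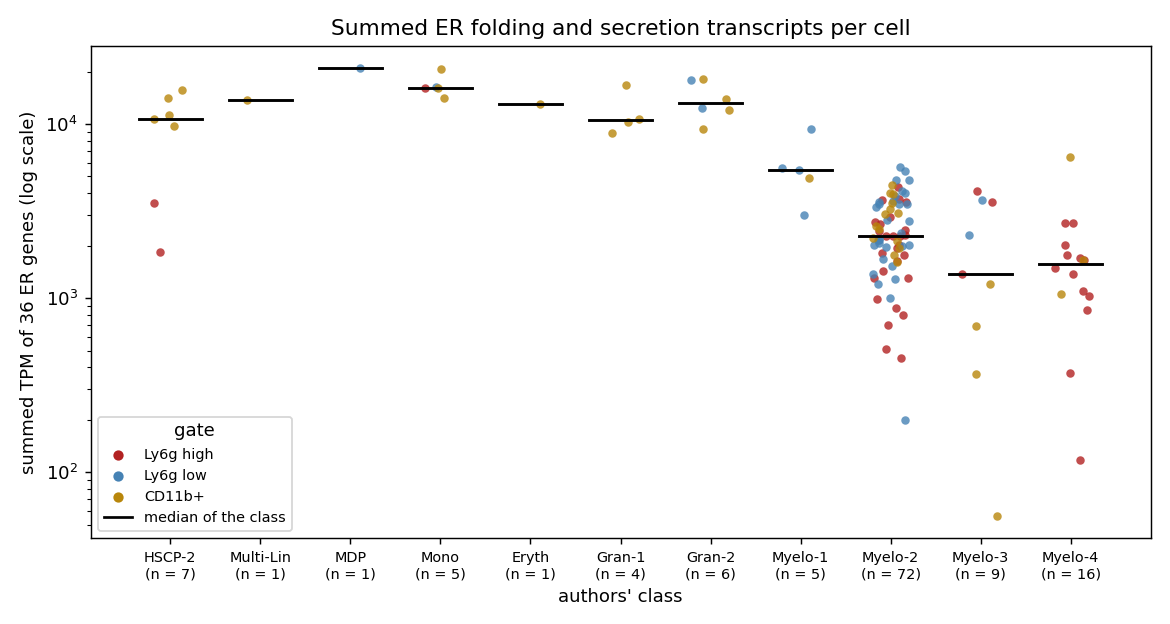
Summed TPM of the 36 ER genes in each cell (log scale) by class, coloured by gate, with a bar at the class median. Gran and Mono cells lie at 8936 TPM or more, and the medians of Myelo-2, Myelo-3 and Myelo-4 lie at 2289, 1382 and 1573 TPM.

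The number of genes detected moved with the classes too, and its part in the sums was not tested. Its median was 4169 in Gran cells and 4679 in Mono cells, beside 2239.5 in Myelo-2 and 1409 in Myelo-4 cells. The ER genes were a median of 0.79% of the detected genes of a Gran cell, 0.71% in Myelo-2 and 0.58% in Myelo-4 cells, so the count of ER genes detected moved largely with this number. Sums of cells chosen by this number are given as a description. The 5 Myelo-2 cells with 3000 or more genes (3202 to 4503), all of the Ly6g low gate, held 2368 to 4008 TPM of the 36 genes. The 10 Gran cells, with 2989 to 5058 genes, held 8936 TPM or more, but 8 of them were of the CD11b+ gate. For these 8, gate and class both differ from the 5 Myelo-2 cells. The 2 Gran cells of the Ly6g low gate held 12444 and 17991 TPM. The 3 CD11b+ HSCP-2 cells with under 3000 genes (1566 to 2919) held 10647, 14171 and 15613 TPM. In the last of these, the cell with 1566 genes, 8324 TPM was P4hb alone. Plasma cells are a known source of very high ER transcripts: of 6 of their markers in the table, Mzb1, Sdc1, Tnfrsf17 and Prdm1 were listed at 0 in all 3 gates, and the sum of the list reached at most 1.12 TPM in any cell. The MDP cell, with the highest ER sum of all, held 222546 TPM of a mast cell and basophil list, from 4 of its 8 genes, with Fcer1a, Gzmb, Mcpt1 and Cma1 listed at 0. It enters the Ly6g low means below and none of the comparisons between classes.

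Among the Gran, HSCP-2 and Eryth cells of the CD11b+ gate, the ER sum did not run in parallel with primary granule cargo. Gran cells of the CD11b+ gate held 49601 to 122068 TPM of Mpo, Elane, Prtn3 and Ctsg together, with a median of 78934, and their median ER sum was 11413 TPM. Of the 5 HSCP-2 cells of that gate, 1 held 43918 TPM of the 4 genes, 2 held 5124 and 4406 TPM, and 2 held 51.3 and 50.9 TPM. Their ER sums, in the same order, were 15613, 9813, 11207, 10647 and 14171 TPM. The HSCP-2 cells with the least cargo were therefore within the range of Gran cells in summed ER transcripts, but their sums came from fewer genes. The cells with 51.3 and 50.9 TPM of cargo had 15 and 22 ER genes at 1 TPM or more, of 2163 and 2919 genes detected. Gran cells of the CD11b+ gate had 27 to 34 ER genes at that level. In the former cell Dnajb9 held 3080 TPM, Ostc 1951 TPM and Sec61b 1710 TPM. In the latter Canx held 3203 TPM and Spcs3 2760 TPM. The Eryth cell, in the same gate, held 43.9 TPM of the 4 cargo genes and 12994 TPM of ER genes.

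The opposite makeup was found in Myelo-2 cells. In the CD11b+ gate 14 of them held 180325 to 323205 TPM of specific granule cargo, with a median of 259723, and 1623 to 4480 TPM of ER genes, with a median of 2818. Camp, the cathelicidin precursor, alone had a mean of 59599 ± 14072 TPM (SD, 14 cells) there and Ltf, lactoferrin, 9403 ± 6053 TPM. Expressed as the TPM of all primary and specific cargo for each TPM of ER genes, the median was 0.938 in CD11b+ HSCP-2 cells (0.0940 to 3.41), 8.83 in Gran cells (6.43 to 18.6) and 96.4 in Myelo-2 cells (41.7 to 181). These 3 ranges did not overlap. Myelo-1 cells of all gates, which carried both kinds of cargo, had a median of 38.4 (11.8 to 42.8), between Gran and most Myelo-2 cells.

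**Figure D3:**
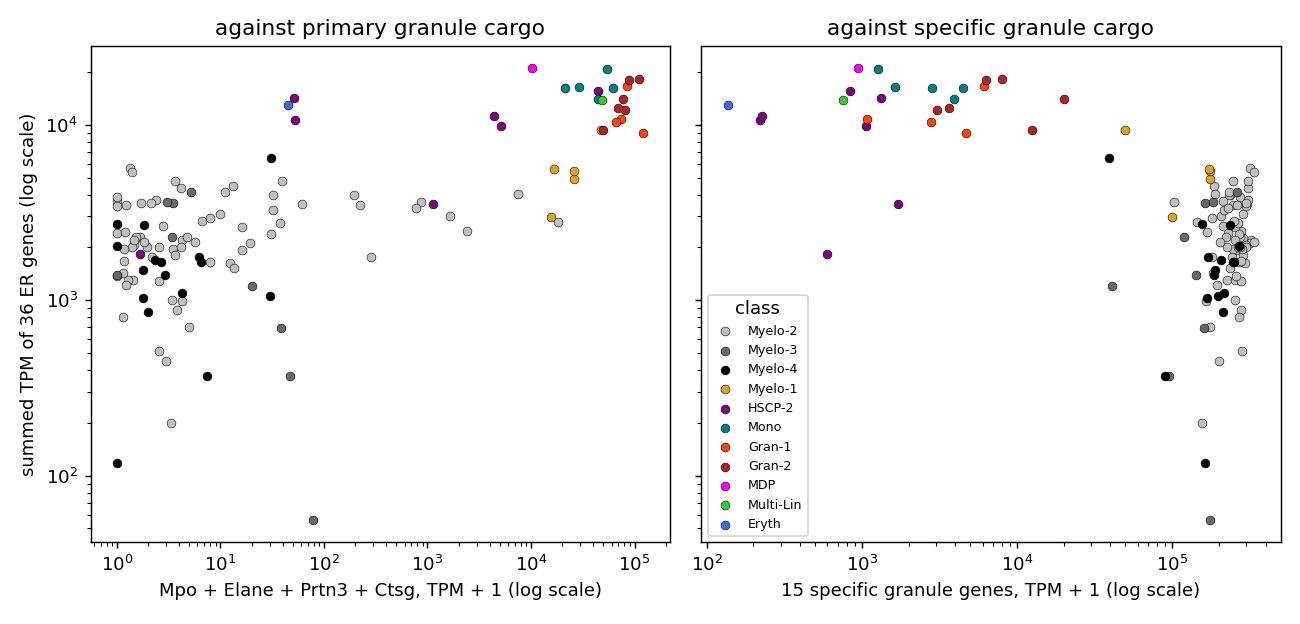
Summed TPM of the 36 ER genes (vertical, log scale) against summed TPM + 1 of Mpo, Elane, Prtn3 and Ctsg (left) and of the specific granule list (right), 1 point per cell, coloured by class. HSCP-2 cells with 50.9 and 51.3 TPM of the 4 primary cargo genes stand at the height of Gran cells, and Myelo-2 cells stand low at 103293 TPM or more of specific cargo.

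Over all 127 cells the ER sum had a Spearman correlation of 0.57 with the 4 primary cargo genes (Pearson 0.65 on log2 values) and -0.36 with specific cargo (Pearson -0.63). It was 0.60 with the number of genes detected (Pearson 0.69). These cells share a fixed total, so that a class filled with cargo has less room for other transcripts, and they fall into separate classes. Within the 72 Myelo-2 cells the values were 0.24 for primary cargo and 0.15 for specific cargo, and within the 25 cells outside the Myelo classes 0.25 for primary cargo (Pearson 0.58). Removing 41 granule genes and scaling each cell back to the same total left the ER median of Gran over Myelo-2 cells at 2.08 on the log2 scale, beside 2.28 without this step.

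Differences are given as the log2 ratio of mean TPM + 1. Such a ratio understates the difference of genes near 1 TPM. A gene counts as measured when at least 25% of the cells of either group reached 1 TPM. In the CD11b+ gate most ER genes were higher in Gran than in Myelo-2 cells. Of 35 measured, 29 were at least 2-fold higher and 0 lower. Over all 6679 genes measured in this pair 55.4% were at least 2-fold higher and 11.8% lower, so that a high share of calls is the background here. The median log2 ratio of the 35 was 2.28, beside 1.26 for all genes. By role, 9 of 9 translocon genes were at least 2-fold higher (median 2.18), 2 of 4 signal peptidase genes (1.64), 3 of 4 glycosylation genes (3.80), 9 of 11 chaperones (2.51), 5 of 6 disulfide genes (2.28) and Xbp1 (1.14). The signal peptidase share was near that of all genes, and the Xbp1 ratio was under the median of all genes. A gene that passed the filter through Gran cells alone could hardly be called lower. Sec63 was 1 such gene, at 14.56 and 29.62 TPM in the 2 Gran cells that reached 1 TPM. HSCP-2 cells were set against the same 14 Myelo-2 cells, and the 2 comparisons therefore share them. Of 31 genes measured, 22 were at least 2-fold higher and 4 lower, with a median of 1.86. Over all 4453 genes measured 51.1% were higher and 28.3% lower, with a median of 1.06. The rescaling above lowered the median of all genes from 1.26 to 1.04 in the first pair and from 1.06 to 0.71 in the second, and it left 28 and 19 ER genes at least 2-fold higher, beside 50.9% and 45.9% of all genes measured. It left 0 and 6 ER genes at least 2-fold lower.

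**Figure D4:**
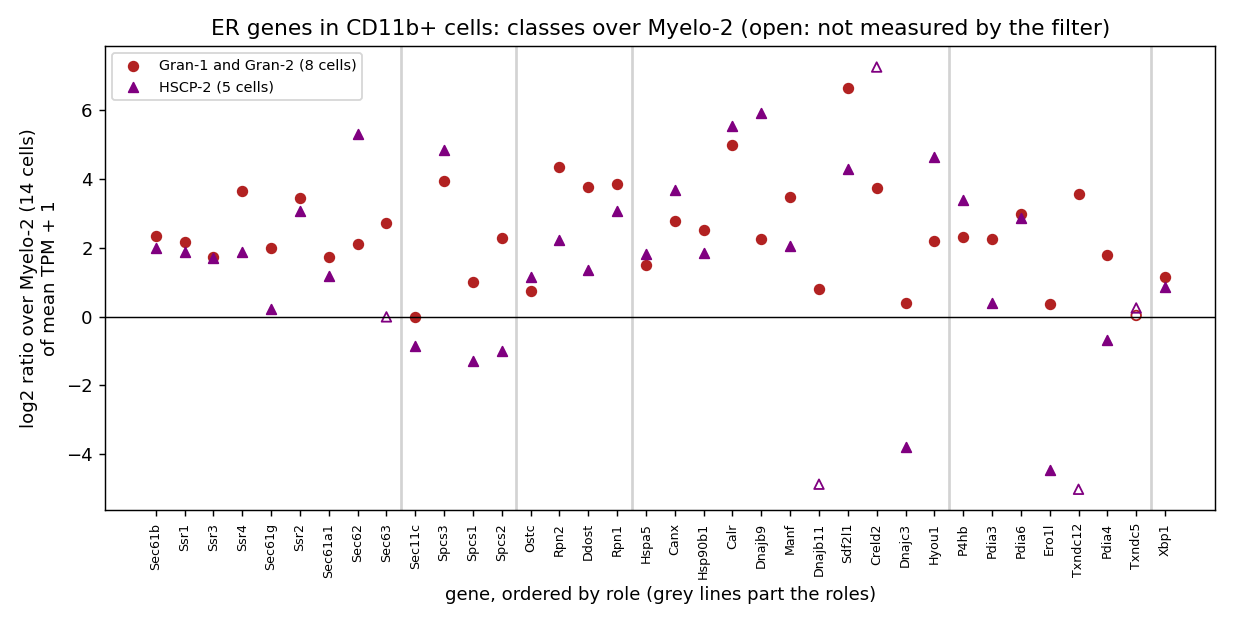
Log2 ratio of mean TPM + 1 of Gran and of HSCP-2 cells over Myelo-2 cells in the CD11b+ gate for each ER gene, ordered by role, with open marks for genes that were not measured by the filter. All 9 translocon genes of Gran cells lie at 1 or above, with Sec63 measured through Gran cells alone. The signal peptidase genes of HSCP-2 cells lie on either side of 0 (median -0.93).

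Among the translocon genes, the channel subunit Sec61b was at 308 to 1707 TPM in the 8 Gran cells of the gate (median 516), and at 0 to 610 TPM in Myelo-2 cells (median 49.1). In HSCP-2 cells it was at 0 to 1710 TPM, with 3 of 5 cells at 1 TPM or more. Ssr1, the alpha subunit of TRAP, was at 254 to 1260 TPM in Gran cells (median 649), at 0.12 to 425 TPM in Myelo-2 cells (median 148) and at 0.78 to 1184 TPM in HSCP-2 cells (median 528). Both genes overlapped between Gran and Myelo-2 cells. Sec62, which helps post-translational entry of short chains, showed another order. It was at 832, 197, 96.1, 193 and 39.6 TPM in the 5 HSCP-2 cells and at no more than 29.6 TPM in any Myelo-2 cell of the gate. Gran cells stood between, at 0.32 to 113 TPM. Its partner Sec63, a J-domain protein, was listed at 0 in all 5 HSCP-2 cells, reached at most 0.10 TPM in Myelo-2 cells of the gate, and was detected in 2 of 8 Gran cells. Myelo-2 cells of the other gates reached 266 TPM of Sec62 (Ly6g low) and 424 TPM of Sec63 (Ly6g high).

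Signal peptidase was the role in which the median ratios of Gran (1.64) and HSCP-2 cells (-0.93) over Myelo-2 cells stood farthest apart. The summed level of its 4 genes was 931 TPM or more in each Gran cell (median 1313, highest 2662). In the 5 HSCP-2 cells it was 0, 141, 2.51, 4031 and 2379 TPM, so 3 cells were far under and 1 was above all Gran cells. Sec11c, a catalytic subunit, was at 1150 TPM in 1 HSCP-2 cell and listed at 0 in the other 4. It was near the same level in Gran cells (62.9 to 804 TPM, mean 412 ± 258, SD) and Myelo-2 cells (0 to 1419 TPM, mean 417 ± 396), with a log2 ratio of -0.02. Sec11a, the other catalytic subunit and no member of the set, had a mean of 425 TPM in Gran, 86.9 TPM in Myelo-2 and 262 TPM in HSCP-2 cells. In the HSCP-2 cells it was at 246, 0, 1.21, 0 and 1064 TPM, and the cell with Sec11c was listed at 0 for Sec11a. Spcs3, an accessory subunit, averaged 523 TPM in Gran, 968 TPM in HSCP-2 and 33.2 TPM in Myelo-2 cells. The accessory subunits Spcs1 and Spcs2 averaged 388 and 344 TPM in Gran, 78.3 and 34.2 TPM in HSCP-2 and 194 and 69.975 TPM in Myelo-2 cells. The reference annotation lists a pseudogene copy of Spcs2 and of Calr, so the split of reads between copies is uncertain for these genes.

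Of the oligosaccharyltransferase genes, Ddost was at 172 to 859 TPM in Gran cells (median 416) and at 0 to 164 TPM in Myelo-2 cells (median 0.47), with no overlap. HSCP-2 cells were lower than Gran in median, at 82 TPM (0.59 to 196). Rpn2, ribophorin II, averaged 306 TPM in Gran, 69.5 TPM in HSCP-2 and 14.1 TPM in Myelo-2 cells, and Rpn1, ribophorin I, averaged 123, 70.5 and 7.54 TPM. Ostc, a subunit that joins the complex to the translocon, differed less, with means of 317, 423 and 189 TPM. In HSCP-2 cells 92.3% of the Ostc total came from 1 cell.

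The lectin chaperones bind sugar chains of new glycoproteins. Canx, calnexin, was at 1460, 1979, 864, 3203 and 973 TPM in the 5 HSCP-2 cells, at 475 to 1389 TPM in the 8 Gran cells (median 913) and at 0.2 to 460 TPM in the 14 Myelo-2 cells (median 80.6). No HSCP-2 or Gran cell of the CD11b+ gate overlapped with a Myelo-2 cell of that gate. Calr, calreticulin, was at 172 to 1368 TPM in Gran cells (median 794) and at 0 to 109 TPM in Myelo-2 cells (median 0.695), again with no overlap. In HSCP-2 cells it ranged from 1.29 to 1918 TPM (median 962). Sdf2l1, which works with BiP, was at 7.70 to 259 TPM in Gran cells and listed at 0 in all 14 Myelo-2 cells. Within the CD11b+ gate, 4 of 36 genes (Ddost, Calr, Canx and Sdf2l1, 11.1%) were higher in every Gran cell than in every Myelo-2 cell, beside 65 of 9358 genes, or 0.695%. For HSCP-2 cells of that gate it was 2 of 36 (Sec62 and Canx, 5.56%), beside 51 of 8850 genes, or 0.576%.

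Hspa5, the BiP chaperone, overlapped between classes. It was at 1715, 701, 82.7, 853 and 3133 TPM in HSCP-2 cells, at 291 to 2354 TPM in Gran cells (median 809) and at 0 to 1439 TPM in Myelo-2 cells (median 233). Its mean was 1297 ± 1180, 1030 ± 749 and 367 ± 419 TPM (SD over 5, 8 and 14 cells). Summed chaperone transcripts in the CD11b+ gate were 4446 to 6376 TPM in HSCP-2 cells and 1458 to 6208 TPM in Gran cells, against 155 to 1872 TPM in Myelo-2 cells. The 2 HSCP-2 cells of the Ly6g high gate held 225 and 400 TPM, within that Myelo-2 range. Not all chaperones were high in HSCP-2 cells. The J-domain co-chaperones Dnajb11 and Dnajc3 were listed at 0 in all 5, although Dnajb9, another member of that family, averaged 678 TPM, 90.9% of it from 1 cell. Creld2 was at 751 TPM in that same HSCP-2 cell and listed at 0 in the other 4. Hyou1, a nucleotide exchange factor of BiP, was the lowest of the 36 genes, at 1.74 TPM over all cells, and was detected in 17 of 127.

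The 7 genes with the ER stress response element printed above had ratios in the range of the other ER genes. In Gran over Myelo-2 cells 6 of the 7 were at least 2-fold higher, with a median of 2.78, and 18 of 21 measured genes with a promoter entry but no match were, with a median of 2.26. Dnajc3 was the one under 2-fold, with a log2 ratio of 0.39. In HSCP-2 over Myelo-2 cells 5 of 6 measured genes with the element were at least 2-fold higher and Dnajc3 was lower, beside 11 higher and 3 lower of 18 without it.

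Among the disulfide genes, P4hb, the major protein disulfide isomerase, was at 17.3 to 2050 TPM in Gran cells (median 681) and at 0 to 620 TPM in Myelo-2 cells (median 69.4). In HSCP-2 cells the median was 31.7 TPM and 1 cell stood at 8324 TPM, which made up 96.1% of the class total. Pdia3, which serves calnexin and calreticulin clients, had a mean of 469 ± 288 TPM in Gran, 97.4 ± 186 TPM in Myelo-2 and 128 ± 214 TPM in HSCP-2 cells. Txndc12, a small thioredoxin-like oxidoreductase, was detected in 7 of 8 Gran cells (mean 378 TPM), in 2 of 14 Myelo-2 cells (mean 31.3 TPM) and in 0 of 5 HSCP-2 cells, all listed at 0. Ero1l, the oxidase that recharges the isomerases, differed little between Gran (80.8 TPM) and Myelo-2 cells (62.9 TPM) and was at 1.93 TPM in HSCP-2 cells, all of it from 1 cell. Txndc5 was detected in 6 of 127 cells, and its mean was 144 TPM in the 5 Mono cells and 0.017 TPM in the 10 Gran cells of all gates.

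The regulator Xbp1 was at 0 to 341 TPM in Gran cells (median 112), at 0 to 504 TPM in Myelo-2 cells (median 5.66), and in HSCP-2 cells at 3.42, 526.48, 0, 0 and 0 TPM. Its level did not follow the chaperones from cell to cell in HSCP-2: the 3 cells listed at 0 for Xbp1 held 4780, 5042 and 6376 TPM of chaperone transcripts. These values are of total Xbp1 transcripts, and the spliced form, which encodes the active factor, was not told apart.

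**Figure D5:**
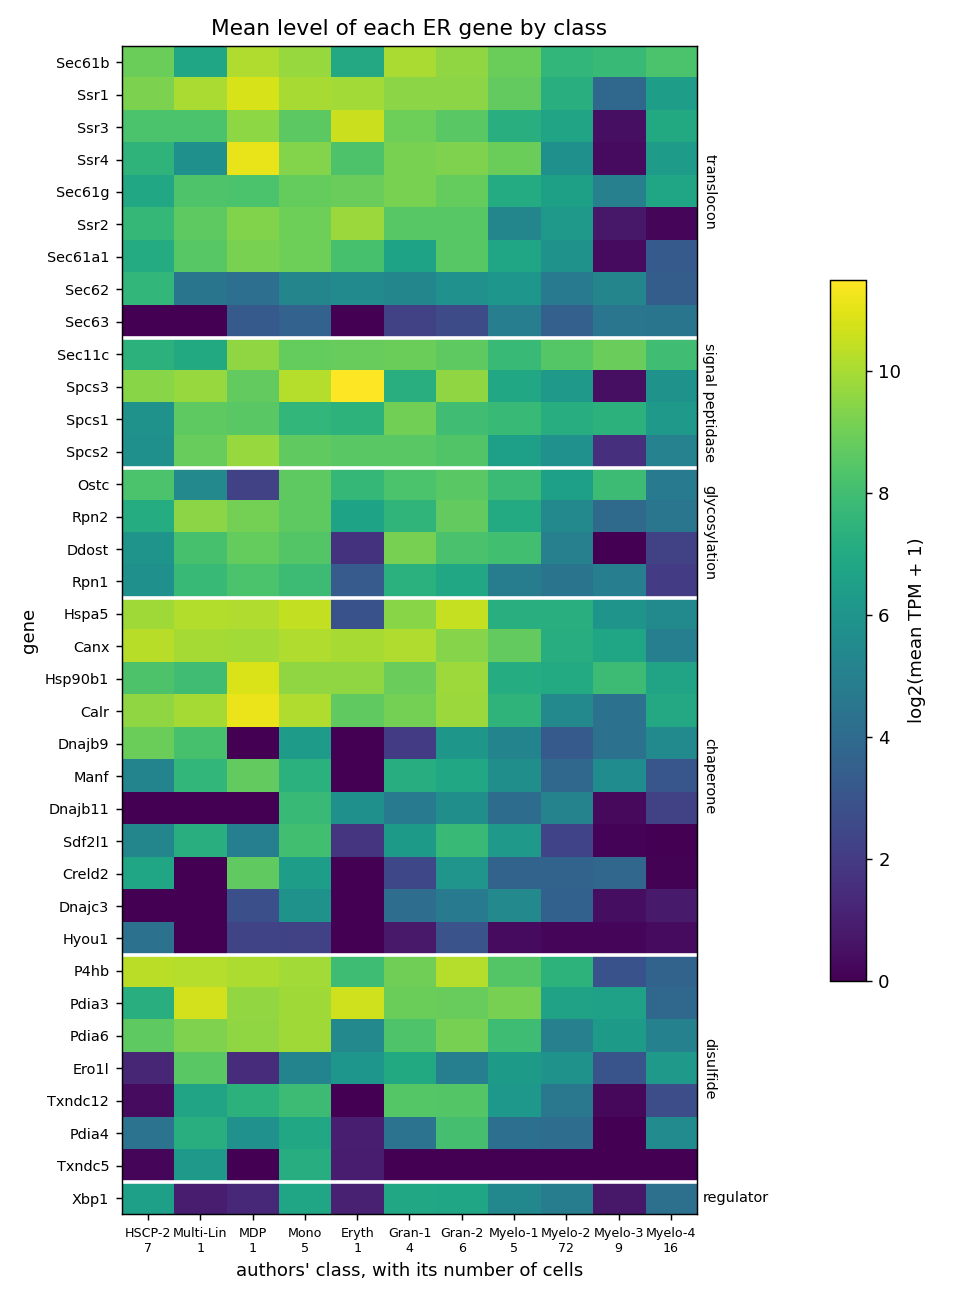
Colour map of log2(mean TPM + 1) for each ER gene (rows, by role) in each class (columns, with the number of cells). Canx is high in every class of the high set, Sec11c is near the same level in Gran and Myelo-2 cells, and Hyou1 and Txndc5 are low in most columns.

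Between gates the order of the ER genes was CD11b+ over Ly6g low over Ly6g high. In that order the median ER sum was 4689 TPM (56.1 to 20676), 3343 TPM (198 to 20915) and 1827 TPM (117 to 16192), with wide overlap. All of the 36 genes except Ssr1 were listed at 0 in at least 1 cell of each gate. In Ly6g high over Ly6g low cells 31 genes were measured, and 18 were at least 2-fold lower and 0 higher, with a median of -1.06. Over all 3983 genes measured 23.7% were lower and 7.96% higher, with a median of -0.29. The lower genes came from all roles but the regulator: 5 of 9 translocon, 1 of 4 signal peptidase, 2 of 4 glycosylation, 6 of 8 chaperone and 4 of 5 disulfide genes. In CD11b+ over Ly6g low cells 7 of 34 were higher and 1 was lower (median 0.54), beside 30.3% higher and 7.83% lower of all 4774 genes measured (median 0.48), so the ER genes were under the background share of higher genes. In CD11b+ over Ly6g high cells 26 of 33 were higher and 0 lower (median 1.64), beside 44.5% and 6.93% of all 4447 genes measured (median 0.83).

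The gates hold different classes. Ly6g high cells were 27 Myelo-2 and 13 Myelo-4 of 46, Ly6g low cells were 31 Myelo-2 of 41, and CD11b+ cells were 14 Myelo-2, 8 Gran and 5 HSCP-2 of 40. Among Myelo-2 cells alone, 11 of 31 measured ER genes were at least 2-fold lower in Ly6g high than in Ly6g low cells and 2 higher (median -0.56), beside 19.8% and 13.1% of all 3911 genes. In CD11b+ over Ly6g low Myelo-2 cells 2 of 30 were higher and 6 lower (median -0.30), beside 17% and 23.4% of all 4063 genes. In CD11b+ over Ly6g high Myelo-2 cells 8 of 29 were higher and 5 lower (median 0.34), beside 23.2% and 19.8% of all 3613 genes. The median difference was thus smaller within this class in each pair, and for CD11b+ over Ly6g low it lay on the other side of 0. How much of each gate difference comes from the mix of classes was not tested further.

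Gate values of single genes followed the same order with exceptions. In the order Ly6g high, Ly6g low and CD11b+, mean Canx was 119 ± 196, 241 ± 318 and 601 ± 685 TPM (SD over cells), with medians of 10.8, 154 and 405 TPM. Among Myelo-2 cells Canx was not higher in the CD11b+ gate, with log2 ratios of -0.20 over Ly6g low and -0.08 over Ly6g high cells. Mean Hspa5 was 95.5 ± 214, 203 ± 402 and 676 ± 813 TPM, and it was detected in 41.3%, 73.2% and 85% of cells. Between the Ly6g gates the log2 ratio of Hspa5, high over low, was -1.08 in all cells but 0.69 in Myelo-2 cells. Mean Ssr1 was 138, 290 and 402 TPM, mean P4hb was 95.2, 303 and 564 TPM, and mean Pdia3 was 84, 231 and 296 TPM. Without the HSCP-2 cell at 8324 TPM, the CD11b+ mean of P4hb was 365 TPM. Xbp1 averaged 20.2, 31.6 and 64.8 TPM, and 30.4%, 60.98% and 60% of cells had it at 1 TPM or more.

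Sec61b differed little between gates, with means of 255, 310 and 409 TPM and medians of 125, 137 and 204 TPM. Sec11c, the gene with the highest mean of the 36 over all cells (341 TPM), was highest in Ly6g low cells, at 248, 420 and 366 TPM. Spcs3 averaged 81.3, 153 and 419 TPM, and in Ly6g high cells 43.7% of it came from 1 Mono cell. Among Myelo-2 cells Spcs3 was lower in the CD11b+ gate, with log2 ratios of -1.79 over Ly6g low and -0.41 over Ly6g high cells. Rpn2 averaged 51.03, 95.95 and 136 TPM, and among Myelo-2 cells its ratios of CD11b+ over Ly6g low and over Ly6g high cells were -1.66 and -1.73. Ostc averaged 104, 79.5 and 248 TPM. Sec63 ran the other way from the rest, with 17.8, 15.9 and 2.01 TPM and detection in 10, 13 and 3 cells. In Ly6g high cells 51.8% of Sec63 came from 1 Myelo-2 cell. Without the highest cell of each gate, Sec63 averaged 8.76, 11.5 and 1.15 TPM.

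The largest differences between the Ly6g gates were in genes that were near 0 in Ly6g high cells. Txndc12 was detected in 5 of 46 Ly6g high cells (mean 0.602 TPM), 17 of 41 Ly6g low cells (62.2 TPM) and 14 of 40 CD11b+ cells (110 TPM). Ddost averaged 12.7, 99.9 and 144 TPM, and Dnajc3 averaged 2.98, 17.7 and 16.8 TPM. Dnajb9 was detected in 1, 5 and 17 cells, with means of 0.202, 15.2 and 138 TPM. The HSCP-2 cell named above gave 55.8% of the Dnajb9 total of the CD11b+ gate, and its mean without that cell was 62.6 TPM. Pdia4, another isomerase, was detected in 1, 10 and 16 cells, with means of 1.90, 27.2 and 85.1 TPM. The single Ly6g high cell with Pdia4 was a Mono cell.

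Myelo-4 cells were compared with Myelo-2 cells within the Ly6g high gate, where they held a median of 1318 detected genes beside 2030. Of 26 ER genes measured, 14 were at least 2-fold lower and 3 higher, with a median of -1.05, beside 45.3% lower and 13.7% higher of all 3105 genes, with a median of -0.75. The share of lower ER genes was near that of all genes. Ssr2, the beta subunit of TRAP, was at 1.05 TPM or less in each of 13 Myelo-4 cells and averaged 97.2 TPM in 27 Myelo-2 cells. Canx averaged 34.3 and 138 TPM and P4hb 14.3 and 121 TPM. Sec61b did not differ in mean by more than a small part of its SD, at 202 TPM in Myelo-4 and 205 TPM in Myelo-2 cells. Single cells carried other means: Calr averaged 147 TPM in Myelo-4 cells and 0.0150 TPM without its highest cell, and Hspa5 averaged 54.8 TPM and 0.892 TPM without its highest cell. When the highest cell of each gene was left out of each group, the median ratio was -2.63.

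Other ER and secretory genes that are no members of the set were taken from 3 lists. The list of further ER genes had 42 entries, that of the unfolded protein response and ER-associated degradation 30, and that of transport between ER and Golgi 32. In Ly6g high over Ly6g low cells 8 of 27 measured further ER genes were at least 2-fold lower and 0 higher (median -0.37), 6 of 15 response and degradation genes were lower and 1 higher (-0.71), and 10 of 23 transport genes were lower and 0 higher (-0.83). In Gran over Myelo-2 cells 28 of 37 further ER genes (median 1.73) and 21 of 30 transport genes (1.62) were at least 2-fold higher. Response and degradation genes were divided, with 10 higher and 5 lower of 22 (0.61). In HSCP-2 over Myelo-2 cells the 3 lists gave 14 higher and 4 lower of 26, 8 higher and 7 lower of 15, and 8 higher and 6 lower of 21. The shares of all genes given above for these pairs are the background for these counts.

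Krtcap2 and Dad1, small subunits of oligosaccharyltransferase, averaged 59.1 and 86.6 TPM in the Ly6g high gate, and 219 and 254 TPM in the Ly6g low gate. Krtcap2 averaged 961 TPM in Gran, 332 TPM in HSCP-2 and 39.9 TPM in Myelo-2 cells of the CD11b+ gate, while Dad1 averaged 692, 87.7 and 109 TPM. Stt3a, a catalytic subunit of that enzyme, averaged 34.4 and 102 TPM in the Ly6g gates, and Vimp, a selenoprotein of the degradation route, 26.2 and 102 TPM. Herpud1, a degradation factor that the unfolded protein response induces, averaged 13.2, 109 and 337 TPM in the 3 gates, with CD11b+ the highest. Within the CD11b+ gate it was at 908 TPM in HSCP-2, 317 TPM in Gran and 129 TPM in Myelo-2 cells. Edem1, which marks misfolded glycoproteins for degradation, averaged 0.732, 19.3 and 25.6 TPM in these classes, and Asns, asparagine synthetase, was listed at 0 in all HSCP-2 cells and averaged 81 and 144 TPM in Gran and Myelo-2 cells.

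Of the transport genes, Sec31a, an outer coat protein of COPII vesicles, averaged 2.06 and 33.3 TPM in the Ly6g high and low gates, and 104 TPM in Gran against 9.18 TPM in Myelo-2 cells. Lman2, a cargo lectin, averaged 8.15 and 42.9 TPM in the Ly6g gates, and 94.9 against 6.03 TPM in the 2 classes. Tmed2, a cargo receptor of the p24 family, averaged 45.0 and 130 TPM in the Ly6g gates. Copz1, a subunit of the COPI coat, averaged 102 and 268 TPM there. Copz1 was close in Gran and Myelo-2 cells, at 440 and 391 TPM, and at 12.1 TPM in HSCP-2 cells.

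Markers of other cell types differed between these classes, and their part in the results was not tested. Counts of markers above 0 mean above 0 in at least 1 cell of a class, over all gates. In HSCP-2 cells 9 of 9 progenitor markers were above 0 and 8 reached 1 TPM. The sum of this list was 486 to 9875 TPM (median 978), against 0 to 1977 TPM (median 1.21) in Myelo-2 cells and 1.94 to 840 TPM (median 355) in Gran cells. Also above 0 in HSCP-2 cells were 4 of 9 erythroid markers (median sum 356 TPM, highest 4167), of which 3 reached 1 TPM. So were 4 of 8 mast cell and basophil markers (13.8, highest 4766). The B cell and megakaryocyte lists had median sums of 0 in HSCP-2 cells, with highest sums of 1550 and 1708 TPM. Of the 6 T and NK cell markers, 2 were above 0 in HSCP-2 cells (median sum 765 TPM, highest 4889). Gran cells were higher, at 3657 to 9038 TPM (median 4964), from Nkg7 alone, a gene that is also in the primary granule list used here. In Mono cells the monocyte list summed to 903 to 4035 TPM, against 1.69 to 369 TPM in Gran cells and 0 to 150 TPM in Myelo-2 cells. Low levels of cargo stood in cells of every class of the CD11b+ gate: Mpo and Elane were at 1 TPM or more in all 40 cells, with medians of 5.22 and 11.9 TPM in its Myelo-2 cells. In Ly6g low cells they were at 1 TPM or more in 15 and 16 of 41.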

How the data were processed

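The values that the authors deposited, for 23946 genes in 127 cells, are log2(TPM + 1), a unit read from the numbers, which sum to 999633 to 1005383 TPM per cell once turned back. RSEM, Bowtie2 and the build mm9 are named in the submitters' processing notes, with versions not given in the sources used here. Here the values were turned back to TPM, averaged over cells of a gate or class, and compared as log2 ratios of means after adding 1 TPM. A gene was measured if at least 25% of the cells of either group stood at 1 TPM, and called at a ratio of 2-fold. No test or p-value was computed, since no animal is named. Columns without a sample numbered 0, identical columns 0, and no cell was left out and no doublet caller run. Members and gene lists were chosen with earlier results of these data known. Given in full were the 2 genes of each role with the highest mean, Hspa5, Xbp1, and the 3 measured genes with the largest ratio in each pair of gates and a mean of 10 TPM or more. From each further list 4 genes were taken by the ratio between the Ly6g gates, of which 1 is not reported here. Other members named, and Sec11a, were chosen after their values were seen. The code for the ratios was checked by planting known fold changes in resampled Ly6g low cells and reading the change back. That check could hardly fail and does not measure how reliable the ratios are. Python 3.11.15, pandas 2.3.3, NumPy 2.4.6, SciPy 1.17.1 and matplotlib 3.10.9 were used. Alternatives covered the pseudocount, kind of mean, filter, rescaling, single cells left out, and cells by class or genes detected.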

Additional observations from a re-analysis of the deposited data

Results flagged for a closer look

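Among the 5 HSCP-2 cells of the CD11b+ gate, 1 cell held 43918 TPM of Mpo, Elane, Prtn3 and Ctsg together, far above the other 4, which held 50.9 to 5124 TPM. It was picked out because its gap to the next cell took up most of the range of the group. In all, 10 groups and measures were looked at in this way. The limits used pick out about 1 in 20 by chance only where values are normally distributed. That was not shown for these sums, and their chance rate is not known. The same cell held the highest ER sum of the 5, at 15613 TPM, and carried 96.1% of the P4hb of its class.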

How the results depend on the processing

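No paired analysis was possible because no test was made and cell numbers do not link cells of different gates. The gate differences depended on which cells were compared. In Ly6g high over Ly6g low cells the 18 lower ER genes became 10 with a pseudocount of 10 TPM, 11 with Myelo-2 cells alone, 7 with cells of 1500 to 3000 genes and 11 with the 4 Myelo classes. The share of all genes, 23.7%, became 14.1%, 19.8%, 14.7% and 25.6% in the same order, and the ER share, 58.1%, became 32.3%, 35.5%, 24.1% and 36.7%. For the ER genes the median was -1.78 with means of log2 values. In CD11b+ over Ly6g low cells the 7 higher genes became 11 without the highest cell of each gene, 2 with Myelo-2 cells, 11 with 1500 to 3000 genes and 2 with the Myelo classes. The share of all genes, 30.3%, became 27.6%, 17%, 29.7% and 17.4%, and the ER share, 20.6%, became 32.4%, 6.67%, 36.7% and 6.67%. The ER median became -0.30 with Myelo-2 cells and -0.45 with the Myelo classes. In CD11b+ over Ly6g high cells the 26 higher genes became 8, 15 and 5 with Myelo-2 cells, 1500 to 3000 genes and the Myelo classes. The share of all genes, 44.5%, became 23.2%, 28.8% and 28.2%, and the ER share, 78.8%, became 27.6%, 51.7% and 17.9%. The ER median became 0.34 with Myelo-2 cells and 0.42 with the Myelo classes. The median of Myelo-4 over Myelo-2 was -2.63 without the highest cell of each gene, and that of Gran over Myelo-2 was 3.72 with means of log2 values. Leaving out each Gran cell in turn gave medians of 2.26 to 2.43, and each HSCP-2 cell 1.67 to 2.12. With 2000 or more genes per cell they were 2.70 and 1.85, and no Myelo-4 cell was that deep.

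Single genes changed sign, and those whose ratio over all cells was at least 2-fold are listed here. For Ly6g high over Ly6g low, Hspa5 was at 0.69 with Myelo-2 cells, 0.69 with 1500 to 3000 genes and 0.16 with the Myelo classes. For CD11b+ over Ly6g low, Spcs3 was at -1.79 and -2.05, and Canx at -0.20 and -0.16, with Myelo-2 cells and the Myelo classes, and Dnajb9 at -0.47 with Myelo-2 cells. For CD11b+ over Ly6g high, Spcs3 was at -0.41 and -0.88, and Rpn2 at -1.73 and -0.61, with the same cells; Rpn2 was at -0.68 with 1500 to 3000 genes, Canx at -0.077 with Myelo-2 cells, and Sec63 at 0.46 without the 25% of cells with the fewest genes. The cause was not tested. Of all such values of named genes, 315 moved by less than 1.5 times, 129 by more, and 15 changed sign from a ratio of at least 2-fold. Sign changes from smaller ratios are among the 315 or the 129 and were not counted apart. The Myelo classes, single cells left out in turn, and 2000 genes were chosen after seeing the data.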
